A study of Mus musculus with 15 samples.

Results

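Map3k5, Hivep2, Hp, Arhgap24 and Pid1 were 5 of the 11201 genes in a table of normalized read counts from cultured mouse microglia, and were among the genes with the deepest decrease after interleukin 4 (IL4). They were chosen by that decrease: of the genes that limma called lower with IL4 than without treatment, whose untreated mean was 50 or more and whose IL4 libraries all lay below all untreated ones, they had some of the largest log2 fold changes. The difference between IL4-treated and untreated cells is therefore given here as a description, with no test. All 5 passed the filter on low values, which kept 11138 of 11201 genes.

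The cells were ESdM, microglia derived in culture from mouse embryonic stem cells of the C57BL/6-ATCC strain and kept in N2 medium, and they stand in for microglia that have developed in a brain. For 24 h they received IL4 (100 U/ml, 3 libraries), LPS (lipopolysaccharide, 500 ng/ml) together with IFNg (interferon gamma, 20 ng/ml, 3 libraries), or transforming growth factor beta (TGFb, 50 ng/ml, 3 libraries). The untreated group (6 libraries) received nothing, and the labels give no time for it. All groups share the same cell source and medium. The labels do not say whether the libraries within a group are separate cultures, and p-values then reflect only how far these libraries spread, which may be technical. Values are normalized read counts, the authors' scale on which libraries of different depth can be set side by side. Fold changes are differences of log2(value + 1) with their standard error (SE), which understates the change of low values, and each adjusted p is limma's, adjusted by the Benjamini-Hochberg method over all 11138 genes and read at a threshold of 0.05. In RNA from a whole culture, fewer cells expressing a gene and less RNA per cell cannot be told apart.

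The 5 genes encode proteins of different kinds. Map3k5 encodes ASK1, a kinase at the head of a cascade that reads oxidative stress and cytokine signals. Reduced thioredoxin holds ASK1 inactive and TRAF2 helps to activate it, after which it phosphorylates the kinases upstream of JNK and p38. Hivep2 encodes a large zinc-finger protein, also called Schnurri-2, that binds DNA related to the kB site and partners with SMAD proteins. Hp encodes haptoglobin, a secreted acute-phase protein that binds free haemoglobin for uptake through the macrophage receptor CD163, and its best known source is the liver. Arhgap24 encodes FilGAP, a GTPase-activating protein that binds filamin A and switches off the small GTPase Rac. Pid1 encodes an adaptor with a phosphotyrosine-binding domain that interacts with the lipoprotein receptor LRP1 and has been linked to reduced insulin signalling in fat and muscle cells. IL4 acts through its receptor and the transcription factor STAT6 and is known for driving macrophages into an alternatively activated state.

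Reads recovered from the values summed to 2682564 to 18676181 per library, with a median of 7589049. The 3 IL4 libraries held 5523959 to 14361911 reads, and the lowest member count in one of them was 15 reads, for Map3k5. LPS+IFNg replicate 3 stood apart from its group: its root mean square log2 difference over genes was 0.451 from replicate 1 and 0.474 from replicate 2, where replicates 1 and 2 differed by 0.242 and pairs of untreated libraries by 0.22 to 0.407. Results that involve LPS+IFNg are therefore given also without it where that changed the call or direction of a member, and for some other genes and lists. Sizes moved elsewhere too. Against untreated cells the log2 fold change of Pid1 with LPS+IFNg was 0.45 with that library and 0.64 without it. That of Hivep2 was 0.86 with it and 0.70 without it. Of 13 microglia and macrophage markers 12 were in the table, with a summed level of 26634 to 27150 in IL4, 22199 to 24991 in LPS+IFNg, 31248 to 33217 in TGFb and 23599 to 25135 in untreated libraries. The resting microglia gene Cx3cr1 stood at 33.8 to 47 in the TGFb libraries and at 1 to 7.9 in all others, Tmem119 stood at 74.7 to 89.2 in the TGFb libraries and at 1 to 11.2 in all others, and P2ry12 was not analysed here. For haptoglobin the other cell types of interest are hepatocytes and neutrophils. Of 8 hepatocyte markers Afp alone was in the table, with 667.5 to 696 in IL4, 644.7 to 710.5 in LPS+IFNg, 339.7 to 377.8 in TGFb and 722.1 to 796 in untreated libraries, and the albumin gene Alb was not in the table used here. Of 10 neutrophil markers 2 were, with a summed level of 33.9 to 49.4 in IL4, 11.2 to 27.3 in LPS+IFNg, 36.3 to 51.4 in TGFb and 22.6 to 35.6 in untreated libraries. These 2 moved in opposite directions with IL4. S100a8 stood at 1 to 2.82 in IL4, 10.2 to 26.3 in LPS+IFNg, 17.1 to 24.4 in TGFb and 5.52 to 9.43 in untreated libraries. Mmp8 stood at 32.9 to 46.6 in IL4, at the floor of 1 in LPS+IFNg, 18.6 to 28 in TGFb and 13.2 to 28 in untreated libraries. Of 8 markers each, 1 pluripotent stem cell, 0 neuron, 3 astrocyte, 3 oligodendrocyte and 1 fibroblast marker were in the table. The pluripotency factor gene Klf4, which macrophages also express, stood at 94.4 to 121.4 in IL4, 58.9 to 72.3 in LPS+IFNg, 68.3 to 76.8 in TGFb and 57.4 to 88.7 in untreated libraries. The astrocyte markers, mostly Aldoc, summed to 1703 to 1837 in IL4, 1392 to 1484 in LPS+IFNg, 1678 to 1899 in TGFb and 1446 to 1612 in untreated libraries, so both were higher in every IL4 library than in any untreated one. The part of these levels in the results was not tested.

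IL4-treated cells held all 5 genes at a lower level than untreated cells, by ratios of means that ran between 2.13 and 3.11 (untreated over IL4). Map3k5, at the head of the stress kinase cascade, stood at 35.9, 21.2 and 35 in the 3 IL4 libraries, against 90.6 to 105.7 with a median of 92 in the 6 untreated libraries. Hivep2 stood at 29.9, 25.4 and 28.6 with IL4, against 54.7 to 89.7 with a median of 71.4 in untreated cells. Hp stood at 153, 134.1 and 167 with IL4, against 313.8 to 386.7 with a median of 347.3 in untreated cells. No IL4 library of these genes reached an untreated one, which the choice of members required. Arhgap24 stood at 40.6, 33.9 and 52.8 with IL4, against 87.7 to 100.9 with a median of 97.1 in untreated cells. Pid1 stood at 92.6, 86.1 and 77 with IL4, against 164.5 to 198.9 with a median of 181.4 in untreated cells. Of these, IL4 replicate 2 was the lowest for Map3k5, Hivep2, Hp and Arhgap24, and replicate 3 was the lowest for Pid1.

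As log2 fold changes of IL4 against untreated cells these differences were -1.64 (SE 0.14) for Map3k5, -1.29 (SE 0.17) for Hivep2, -1.20 (SE 0.30) for Hp, -1.18 (SE 0.12) for Arhgap24 and -1.08 (SE 0.12) for Pid1. The ratio of untreated to IL4 means was largest for Map3k5 and smallest for Pid1. Pid1 was the last gene inside the choice. The nearest genes outside it were the chemokine gene Ccl3, with a mean of 229.5 with IL4, against 480.6 in untreated cells (-1.06), and Klhl6, with 180.1 with IL4, against 374.2 in untreated cells (-1.04), so the choice does not mark a gap in the ranking. By the rule all 5 were called lower in this comparison, in which 7.33% of all tested genes were called lower, 9.89% were called higher and 23% had libraries of the groups that did not overlap, and nothing is read from that count.

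**Figure D1:**
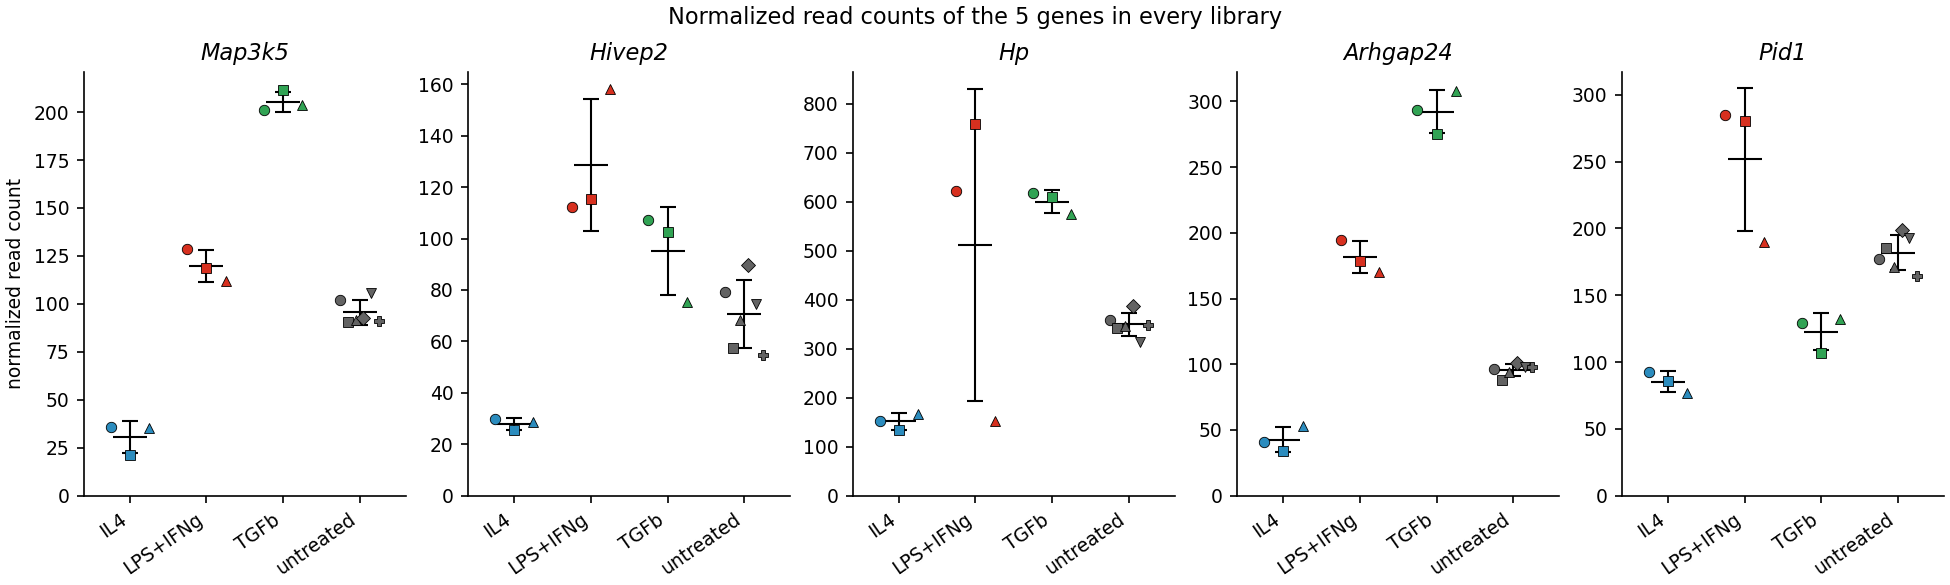
Normalized read count of each of the 5 genes in every library, by group (IL4, LPS+IFNg and TGFb with 3 libraries each, untreated with 6), with bars for the group mean and SD. IL4 libraries lie below all untreated libraries in every panel, as the choice of genes required, while TGFb libraries of Map3k5 and Arhgap24 are the highest and those of Pid1 lie below untreated.

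With LPS+IFNg all 5 fold changes against untreated cells were above 0, and with TGFb 4 were above 0 and that of Pid1 was below. The comparison of LPS+IFNg with TGFb takes its group means from no library of the contrast that chose them. Its SE and p-values rest on 1 spread estimated over all 15 libraries, those included, and so are not independent of the choice. In this comparison 3 of 5 were called, Pid1 higher and Map3k5 and Arhgap24 lower. Of all tested genes 62.6% were called (31.9% higher and 30.8% lower), so the share of the 5 is close to the background. The libraries of the groups did not overlap for 4 of 5, Hp being the exception, as for 66.4% of all genes. Against untreated cells, LPS+IFNg raised 3 of 5 and lowered 0, where 58.9% of all genes were called, 29.5% higher and 29.4% lower, and 50.1% did not overlap. TGFb raised 4 of 5 and lowered 1, Pid1, where 47.5% of all genes were called, 24.1% higher and 23.4% lower, and 46.4% did not overlap. Of the 4 raised, Hivep2 and Hp passed narrowly (limma adjusted p = 0.0456 and 0.0421). Both calls were lost with every library scaled to the same total, and they were made in 7 and 5 of the 15 fits that left out 1 library. The comparisons of LPS+IFNg and of TGFb with untreated cells share the untreated libraries with the one that chose the genes and are not independent of it. Without LPS+IFNg replicate 3, 4 of 5 were higher with LPS+IFNg than in untreated cells, and the counts of the other comparisons were unchanged. The direction of calls over all genes depended on the scaling: with every library scaled to the same total, 35.5% of the calls with LPS+IFNg were higher, where the values as deposited gave 50%, and quantile scaling gave 38.8%. For TGFb against untreated these shares were 37.8% with the same total and 50.8% as deposited, and for IL4 against untreated 34% and 57.4%. That scaling shifted the all-gene median by -0.12 on the log2 scale for LPS+IFNg against untreated cells.

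**Figure D2:**
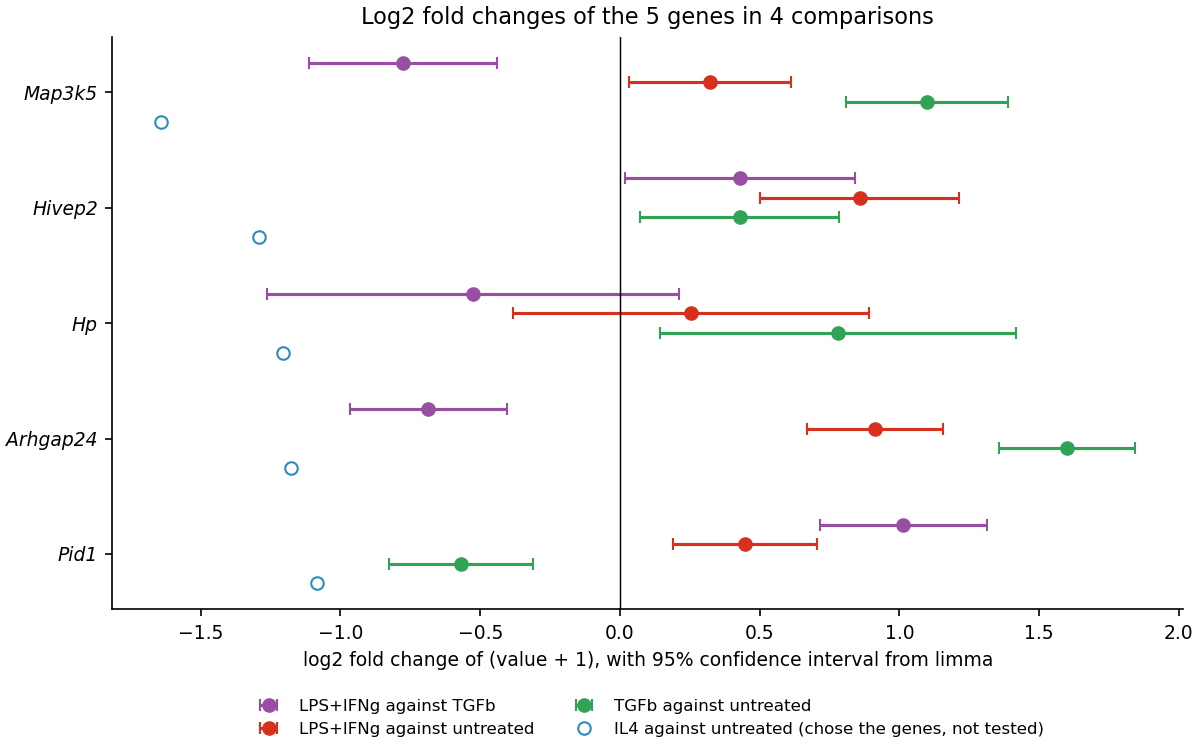
Log2 fold change of each of the 5 genes in LPS+IFNg against TGFb, LPS+IFNg against untreated and TGFb against untreated, with 95% intervals from limma, and in IL4 against untreated as open circles without an interval, since those values chose the genes. In TGFb against untreated Pid1 lies at -0.57 while Arhgap24 lies at 1.60.

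Map3k5 (GRCm38 chromosome 10, 19934472 to 20142753, plus strand, protein coding) had its highest values with TGFb. It stood at 128.6, 118.6 and 111.8 in the LPS+IFNg libraries and at 200.9, 211.3 and 203.7 in the TGFb libraries. Every TGFb library lay above every LPS+IFNg library, and these lay above every untreated library. With LPS+IFNg it was lower than with TGFb by a log2 fold change of -0.78 (SE 0.16, limma adjusted p = 0.000352). TGFb raised it over untreated cells to 205.3 ± 5.39 (SD, n = 3), against 95.5 ± 6.52 (SD, n = 6), a log2 fold change of 1.10 (limma adjusted p = 3.03e-06). Its mean with LPS+IFNg was 119.7 ± 8.47, against 95.5 ± 6.52 in untreated cells, a log2 fold change of 0.32 (95% interval 0.03 to 0.61) that missed the threshold with an adjusted p of 0.0531 from limma, although the libraries did not overlap. That call depended on the setting and was made with edgeR (adjusted p = 0.0123) and DESeq2 (adjusted p = 0.0176) on recovered reads. Between the group means of IL4-treated and TGFb-treated cells, which share no test here, the log2 difference was -2.74.

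In a list of stress kinase pathway genes around ASK1, 26 others were tested, not all of them partners of ASK1. Of these, 12 rose and 7 fell with LPS+IFNg against untreated cells (median log2 fold change 0.11), where 29.5% of all genes rose and 29.4% fell. With TGFb 4 rose and 6 fell (median 0.08), where 24.1% rose and 23.4% fell. Between LPS+IFNg and TGFb 13 were higher and 8 lower (median 0.26), where 31.9% of all genes were higher and 30.8% lower. These directions moved with the scaling: with libraries scaled to the same total 9 rose and 10 fell with LPS+IFNg, and 0 rose and 10 fell with TGFb. Without LPS+IFNg replicate 3 in the shared fit, 6 rose and 10 fell with TGFb. With IL4 2 rose and 2 fell (median -0.01), in a comparison where 17.2% of all tested genes were called, and 2 rose and 5 fell with libraries scaled to the same total. The median of all genes lay at 0.00 with IL4, 0.00 with LPS+IFNg and 0.01 with TGFb. Map3k6, the closest relative of Map3k5, which encodes ASK2, stood at 102.5 ± 26.6 with IL4, against 104.7 ± 21.2 in untreated cells, and was not called (log2 fold change -0.04, limma adjusted p = 0.942). With TGFb, where Map3k5 was highest, Map3k6 fell to 53.7 ± 8.27, a log2 fold change of -0.94 (limma adjusted p = 0.00306). Its call as lower with LPS+IFNg (-0.62, limma adjusted p = 0.0295) was lost without LPS+IFNg replicate 3 (-0.26, adjusted p = 0.295). Traf2, whose product activates ASK1, rose with LPS+IFNg to 488.2 ± 66.3, against 230.7 ± 20.2 in untreated cells, and was 221.3 ± 27.7 with IL4. Among the kinases that ASK1 phosphorylates, Map2k4 rose with IL4 to 589.9 ± 42.8, against 436.8 ± 43.1, while Map2k3 was not called with IL4 and fell with LPS+IFNg to 361.3 ± 22.1, against 512.5 ± 24.2. Txn1, the thioredoxin gene, fell with IL4 to 1635 ± 36.7, against 1900 ± 67.1 (log2 fold change -0.22, limma adjusted p = 0.00256). Map2k6, Map2k7 and the JNK and p38 genes Mapk8, Mapk9 and Mapk14 were not called with IL4, with log2 fold changes between -0.16 and 0.15. Mapk9 was called lower with libraries scaled to the same total (-0.22, limma adjusted p = 0.0372), and Mapk14 was called higher when LPS+IFNg replicate 3 was left out of the shared fit (0.15, limma adjusted p = 0.0196). The largest changes of the list with LPS+IFNg were in Map3k8, a kinase of the inflammatory ERK cascade (log2 fold change 1.82), and in Mapkapk2, a kinase below p38 (1.49). Map3k1 fell with TGFb (-0.36) and fell further with LPS+IFNg (-1.03, limma adjusted p = 1.99e-10).

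Hivep2 (GRCm38 chromosome 10, 13966075 to 14151374, plus strand, protein coding) had its highest mean with LPS+IFNg. It stood at 112.3, 115.2 and 158.1 in the LPS+IFNg libraries and at 107.4, 102.4 and 75.5 in the TGFb libraries. LPS+IFNg replicate 3 was the highest of all 15 libraries, and TGFb replicate 3 lay inside the untreated range of 54.7 to 89.7. LPS+IFNg raised Hivep2 to 128.5 ± 25.6, against 70.7 ± 13.3 in untreated cells, a log2 fold change of 0.86 (SE 0.17, limma adjusted p = 0.000268). With TGFb its mean was 95.1 ± 17.2, a log2 fold change of 0.43 that passed narrowly (limma adjusted p = 0.0456), and that call was made in 7 and missed in 8 of the 15 fits that left out 1 library. The call was also lost when libraries were scaled to the same total (0.35, adjusted p = 0.0822) or by quantiles (0.33, adjusted p = 0.144). Between LPS+IFNg and TGFb the libraries did not overlap, but the log2 difference of 0.43 (95% interval 0.02 to 0.84) had an adjusted p of 0.0646 with limma.

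The 2 relatives of Hivep2 in the table were not called with IL4 in the fit over all 15 libraries. Hivep1, which encodes the kB-binding protein Schnurri-1, stood at 376.3 ± 20 with IL4, against 369.7 ± 25.7 in untreated cells (limma adjusted p = 0.867). Hivep3 stood at 319.3 ± 14.6 with IL4, against 258.3 ± 22.1 in untreated cells (log2 fold change 0.31, limma adjusted p = 0.147), and it was called higher when LPS+IFNg replicate 3 was left out of the shared fit (0.31, adjusted p = 0.0104). With LPS+IFNg both rose as Hivep2 did, Hivep1 to 952.1 ± 143 (log2 fold change 1.35, limma adjusted p = 4.81e-11) and Hivep3 to 612.5 ± 209 (1.20, limma adjusted p = 6.03e-07). Hivep1 rose with TGFb as well (0.38), while Hivep3 was not called with it (-0.08, limma adjusted p = 0.652). Of 14 tested genes of the HIVEP family and its kB and SMAD partners, 10 rose and 1 fell with LPS+IFNg (median 1.15), 6 rose and 2 fell with TGFb (median -0.01), and 11 were higher and 1 lower with LPS+IFNg than with TGFb (median 0.82), in comparisons that called 58.9%, 47.5% and 62.6% of all genes, in that order. The inhibitor gene Nfkbia led with LPS+IFNg at 4062 ± 799, against 305 ± 24.2 in untreated cells, and Relb, an NF-kB subunit, followed at 411.3 ± 39.8, against 91.8 ± 9.93. With TGFb the SMAD inhibitor gene Smad7 rose to 207.3 ± 7.75, against 29.5 ± 4.53. With IL4 0 of the 14 rose and 1 fell, where 9.89% of all genes rose and 7.33% fell. Without LPS+IFNg replicate 3 in the fit 1 rose, Hivep3, and 2 fell, and 2 fell with libraries scaled to the same total. The gene that fell in the fit as deposited was Nfkbia, at 220.4 ± 5.58, against 305 ± 24.2 (limma adjusted p = 0.00138).

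Hp (GRCm38 chromosome 8, 109575128 to 109579172, minus strand, protein coding) was raised with TGFb, and with LPS+IFNg its libraries were split. It stood at 617.1, 608.3 and 574.1 in the TGFb libraries, all above the untreated range of 313.8 to 386.7. In the LPS+IFNg libraries it stood at 621.4 and 759.1 in replicates 1 and 2 and at 152.4 in replicate 3. Replicates 1 and 2 lay above all untreated libraries and replicate 3 lay below them, within the range of the IL4 libraries. TGFb raised Hp to 599.8 ± 22.7, against 349.3 ± 23.6 in untreated cells, a log2 fold change of 0.78 (SE 0.30, limma adjusted p = 0.0421). All groups share 1 estimate of the spread, and without LPS+IFNg replicate 3 the SE of that fold change was 0.077 and the limma adjusted p 1.3e-08. The call was otherwise fragile: with each of the 15 libraries left out in turn it was made in 5 fits and missed in 10, with an adjusted p of up to 0.107, while the TGFb and untreated libraries did not overlap. For LPS+IFNg the mean was 511 ± 318, and the log2 fold change of 0.25 against untreated cells (95% interval -0.38 to 0.89) was not called (limma adjusted p = 0.488). Without replicate 3 the mean was 690.3, the log2 fold change 0.98 and the limma adjusted p 2.76e-09. Between LPS+IFNg and TGFb the log2 difference was -0.53 (95% interval -1.26 to 0.21, limma adjusted p = 0.202), and it was 0.20 (adjusted p = 0.095) without replicate 3, so its direction rested on that library.

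The low Hp of LPS+IFNg replicate 3 was far down the list of differences within the group. It lay 2.16 below the mean of replicates 1 and 2 on the log2 scale, the 10th lowest of 11138 genes, and 17 genes lay more than 2 below. Other genes raised by LPS+IFNg were not all low in that library. The acute-phase gene Saa3 stood at 14787, 13768 and 14305 in LPS+IFNg replicates 1, 2 and 3, complement C3 at 20982, 20304 and 33354, and Nos2, the inducible nitric oxide synthase gene, at 3560, 3309 and 10321, while Lcn2 stood at 378.9, 319.8 and 229.2. The transcription factor genes Cebpa and Cebpb, whose products activate acute-phase genes in liver, were lower in replicate 3, at 107.3 and 514.8, where replicates 1 and 2 had 188.3 and 206.3 for Cebpa and 733.8 and 854.5 for Cebpb. Against untreated cells Cebpa fell with LPS+IFNg (log2 fold change -1.16), and every LPS+IFNg library lay below its untreated range of 330.1 to 394.1. For Cebpb every LPS+IFNg library, replicate 3 included, lay above the highest untreated library, at 414.9. The part of Cebpa and Cebpb in the value of Hp was not tested. Hivep2 lay 0.47 above and Pid1 0.57 below replicates 1 and 2 in the same library.

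**Figure D3:**
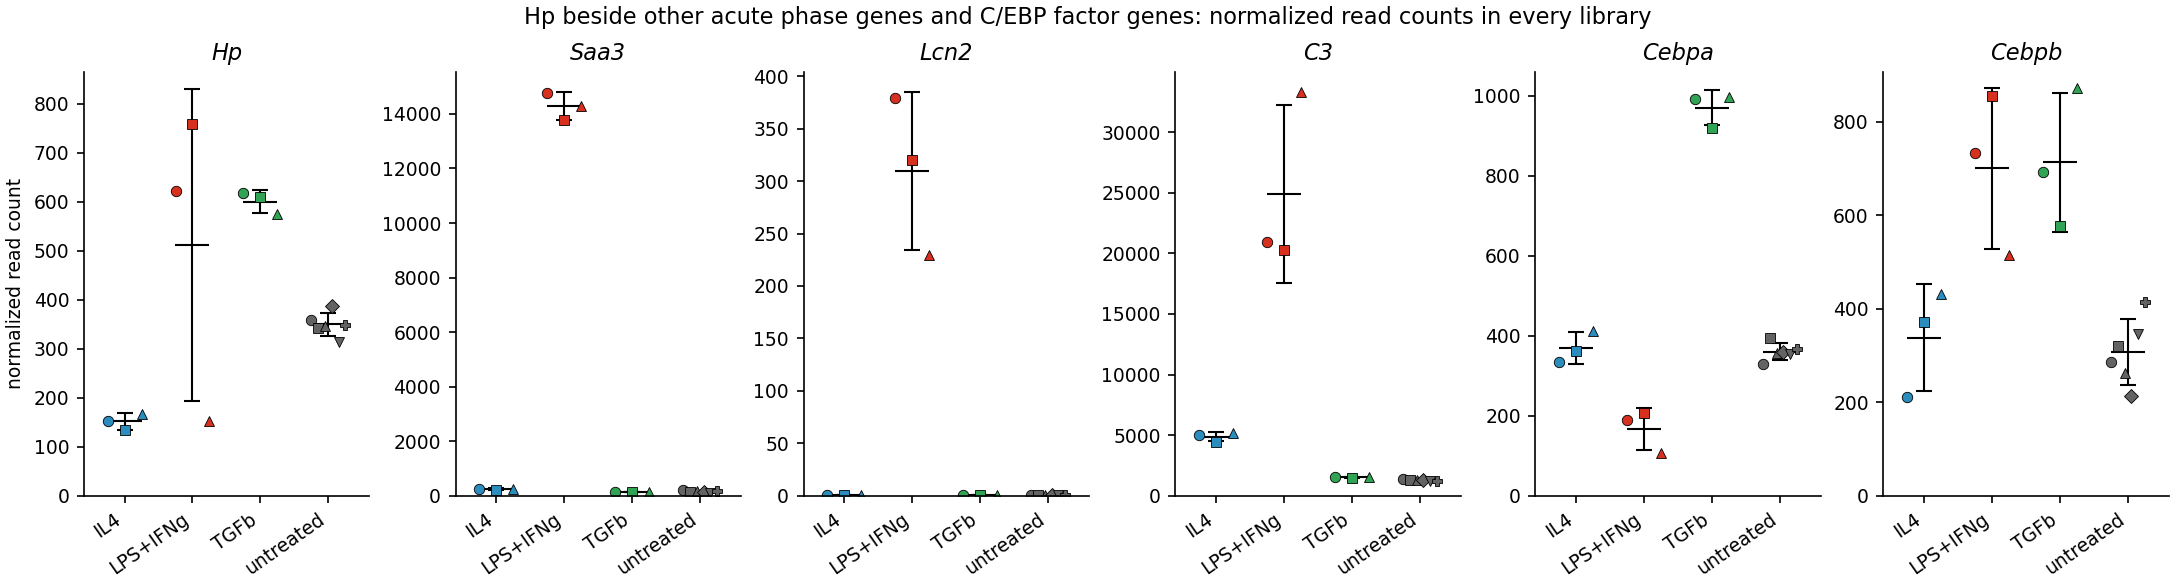
Normalized read counts of Hp, of the acute-phase genes Saa3, Lcn2 and C3 and of the C/EBP genes Cebpa and Cebpb in every library, by group, with the mean and SD as bars and a triangle for replicate 3. Hp stands at 152.4 in LPS+IFNg replicate 3, while Saa3 and C3 of that library stand with or above the other LPS+IFNg libraries.

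Of 19 other tested acute-phase and haemoglobin-clearance genes 6 rose and 1 fell with IL4 (median 0.07), where 9.89% of all genes rose and 7.33% fell, and 5 rose and 3 fell with libraries scaled to the same total. Among those that rose were C3 at 4861 ± 361, against 1280 ± 66.7 in untreated cells, and Saa3 at 240.5 ± 28.6, against 151.8 ± 29.2. With LPS+IFNg 12 rose and 4 fell (median 0.54), where 29.5% of all genes rose and 29.4% fell. Lcn2 and Cp, counted among those that rose, passed the filter on low values only with LPS+IFNg replicate 3 included. Lcn2 passed only through the LPS+IFNg libraries, where it was high, so the filter fixed its rise and nothing is read from it. With TGFb 9 rose and 4 fell (median 0.22), where 24.1% rose and 23.4% fell. Scaling to the same total gave 12 and 6 with LPS+IFNg and 6 and 4 with TGFb. Without LPS+IFNg replicate 3, in a fit that tested 17 of the 19, 10 rose and 7 fell with LPS+IFNg. The genes not tested there were Lcn2 and Cp, which no longer passed the filter and had both been called higher. Lcn2, which encodes a neutrophil and macrophage siderophore-binding protein, had 1064 recovered reads over the LPS+IFNg libraries and 0 in each other group. Saa3 was 6.57 higher on the log2 scale with LPS+IFNg than in untreated cells and was not called with TGFb (-0.11, limma adjusted p = 0.479). TGFb instead raised Cebpa to 969.9 ± 43.4, against 360.3 ± 20.7 in untreated cells, and the iron exporter gene Slc40a1 to 613.3 ± 6.24, against 235 ± 24.2. Cebpb rose to a like level with LPS+IFNg (701 ± 172) and TGFb (713.5 ± 149), against 307.1 ± 70.1 in untreated cells, and was 338.4 ± 114 with IL4 (log2 fold change 0.11, limma adjusted p = 0.794). Between LPS+IFNg and TGFb 10 of the 19 were higher and 6 lower (median 0.32), where 31.9% of all genes were higher and 30.8% lower. Lcn2 and Cp were again counted among the higher. Cebpd rose with TGFb (0.75, limma adjusted p = 0.0495), a call lost with libraries scaled to the same total (0.67, adjusted p = 0.0842), and with LPS+IFNg (1.06). The haem oxygenase gene Hmox1 rose with IL4 to 2676 ± 77.6, against 2080 ± 113. Cd163 was not analysed here.

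Arhgap24 (GRCm38 chromosome 5, 102481391 to 102897937, plus strand, protein coding) had the largest response of the 5 to TGFb. It stood at 194.5, 178.8 and 170.5 in the LPS+IFNg libraries and at 293.2, 275.3 and 307.9 in the TGFb libraries. The 4 groups did not overlap, in the order TGFb, LPS+IFNg, untreated and IL4. TGFb raised it to 292.1 ± 16.3, against 95.8 ± 4.59 in untreated cells, a log2 fold change of 1.60 (SE 0.12, limma adjusted p = 2.59e-09), and LPS+IFNg raised it to 181.3 ± 12.2, a log2 fold change of 0.91 (SE 0.12, limma adjusted p = 1.91e-06). With LPS+IFNg it was lower than with TGFb by -0.69 (SE 0.13, limma adjusted p = 0.00021). The mean with IL4 was 42.4 ± 9.58, a log2 difference of -2.78 against TGFb and -2.09 against LPS+IFNg. In both differences no library overlapped, as held for 55.8% of all genes between IL4 and TGFb and 61.8% between IL4 and LPS+IFNg.

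Arhgap22, the nearest relative of Arhgap24 and also a Rac-directed GAP, was lower with IL4 too. It stood at 1.79 ± 0.37 with IL4, against 11.9 ± 1.72 in untreated cells, a log2 fold change of -2.21 (limma adjusted p = 9.24e-07), with 8 recovered reads over the 3 IL4 libraries. LPS+IFNg raised it to 39.2 ± 6.05 (log2 fold change 1.64, limma adjusted p = 3.57e-06). With TGFb it stood at 19.1 ± 2.22 (0.64, limma adjusted p = 0.0215), a call lost under quantile scaling (0.46, adjusted p = 0.0821). Unlike Arhgap24 it was higher with LPS+IFNg than with TGFb (0.99, limma adjusted p = 0.00222). Arhgap25, the third relative, was not called with IL4 at 233.3 ± 6.09, against 262 ± 26 in untreated cells (limma adjusted p = 0.353), and TGFb raised it to 365.3 ± 60.8. The target GTPase gene Rac1 was not called with IL4 (2587 ± 19.3, against 2563 ± 73.3 in untreated cells), nor was the filamin A gene Flna (6458 ± 150, against 6545 ± 200). Rac2, the GTPase of blood cells, rose with LPS+IFNg to 3062 ± 305 and fell with TGFb to 1723 ± 47.3, against 2225 ± 42.3 in untreated cells. Other GAP genes with large changes were Arhgap18, lower with LPS+IFNg (log2 fold change -1.37), and Arhgap27, higher with TGFb (1.19), while Rhob was lower with LPS+IFNg than with TGFb (-0.91).

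**Figure D4:**
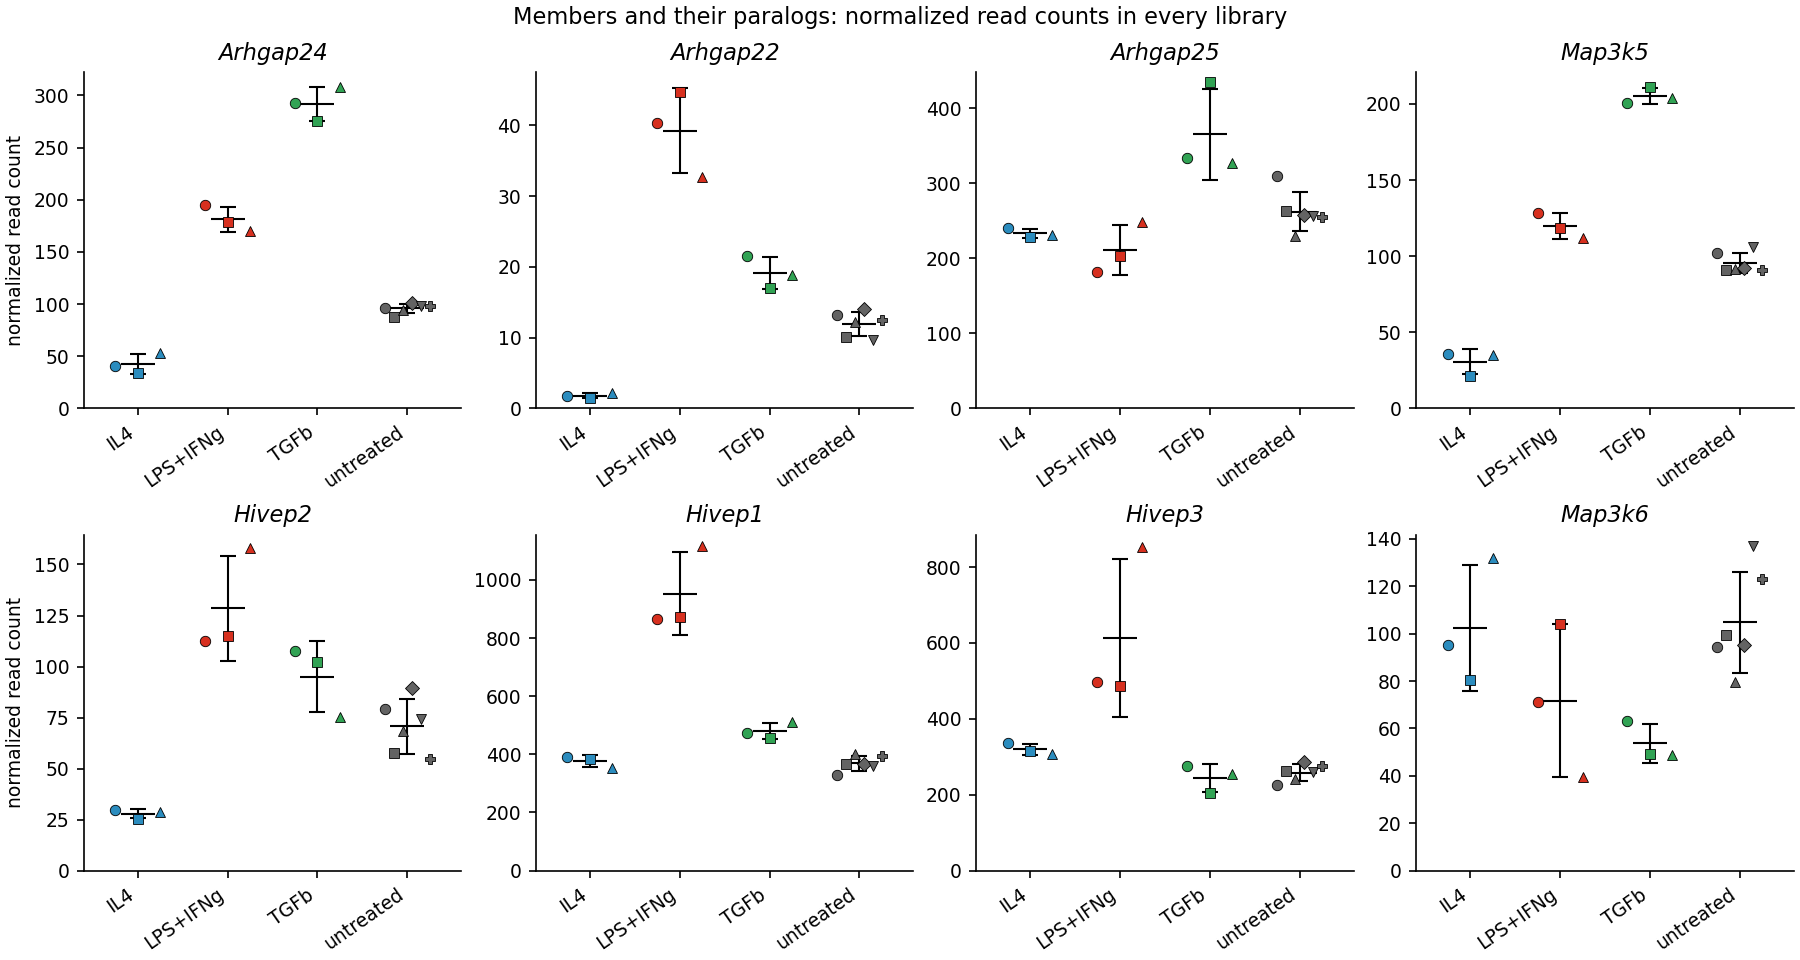
Normalized read counts in every library of Map3k5, Hivep2 and Arhgap24 and of their relatives, by group, with bars for the mean and SD. Hivep1 and Map3k6 have IL4 means of 376.3 and 102.5, against 369.7 and 104.7 in untreated cells, whereas Arhgap22 stands at 1.79 with IL4, against 11.9 in untreated cells.

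Pid1 (GRCm38 chromosome 1, 84036296 to 84364180, minus strand, protein coding) was the member whose direction with TGFb differed from the rest. It stood at 285.1, 280.3 and 189.7 in the LPS+IFNg libraries and at 128.9, 106.7 and 132.1 in the TGFb libraries. LPS+IFNg replicate 3 lay within the untreated range of 164.5 to 198.9, and all TGFb libraries lay below that range and above the IL4 libraries. With LPS+IFNg Pid1 was higher than with TGFb by 1.01 (SE 0.14, limma adjusted p = 5.35e-06). TGFb lowered it to 122.6 ± 13.8, against 181.7 ± 13.2 in untreated cells, a log2 fold change of -0.57 (SE 0.12, limma adjusted p = 0.00091). LPS+IFNg raised it to 251.7 ± 53.8, a log2 fold change of 0.45 (SE 0.12, limma adjusted p = 0.00434). The mean with IL4, 85.3 ± 7.83, was lower than that with TGFb by a log2 difference of -0.52 and than that with LPS+IFNg by -1.53.

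Of 25 tested genes of insulin and IGF1 signalling with LRP1, 4 rose and 14 fell with LPS+IFNg (median -0.30), where 29.5% of all genes rose and 29.4% fell. With TGFb 13 rose and 4 fell (median 0.22), where 24.1% rose and 23.4% fell. Between LPS+IFNg and TGFb 2 were higher and 17 lower (median -0.37), where 31.9% of all genes were higher and 30.8% lower. Lrp1, the receptor that Pid1 binds, fell with LPS+IFNg to 10391 ± 1203 and rose with TGFb to 27737 ± 1090, against 14878 ± 340 in untreated cells. Its chaperone gene Lrpap1 rose with TGFb to 3056 ± 68.4, against 1333 ± 70.3. Irs2, an insulin receptor substrate, fell with LPS+IFNg to 62.6 ± 5.52 and rose with TGFb to 199.2 ± 7.08, against 95 ± 17.9. Grb10, an adaptor that dampens insulin receptor signalling, had its highest value with TGFb at 24.3 ± 2.67, against 4.29 ± 1.69, and Igf1 its lowest with LPS+IFNg at 336.7 ± 57.5, against 1615 ± 78.5. Slc2a1, the glucose transporter GLUT1, rose with LPS+IFNg to 1106 ± 55.4 and with TGFb to 1541 ± 85.2, against 834.5 ± 47.3. With IL4 5 of the 25 rose and 3 fell (median 0.03), where 9.89% of all genes rose and 7.33% fell. The counts were 4 and 4 with libraries scaled to the same total, and 8 and 3 without LPS+IFNg replicate 3 in the fit. Lrp1 was not called with IL4 (15053 ± 775, against 14878 ± 340). The insulin receptor gene Insr was not called with IL4 either (442.8 ± 23.6, against 394.6 ± 13.3, limma adjusted p = 0.0665), nor was Igf1r (754.1 ± 30.7, against 737.1 ± 36.3), and Irs1 was not analysed here.

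Per kilobase of the longest annotated transcript, on which levels of different genes can be set side by side, Hp was the most abundant of the 5 in every group. Its level per kilobase was 113 with IL4, 380 with LPS+IFNg, 446 with TGFb and 260 in untreated cells. Hivep2 was the least abundant in every group, with 2.84 per kilobase with IL4, 13.1 with LPS+IFNg, 9.66 with TGFb and 7.18 in untreated cells. Pid1 was second with IL4, LPS+IFNg and no treatment, at 32, 94.5 and 68.2 per kilobase, while with TGFb Arhgap24 (68.3) stood above Pid1 (46). The isoforms read in these cells were not determined, so these levels depend on the transcript taken.

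Promoter sequences are shown for the members that have one in the RefSeq table of GRCm38.p6, 3 of 5, because the same table lets motifs of the factors named here be read beside the values. Each window runs 5′ to 3′ on the strand of the gene, with 250 bases before the start and 50 after it. Capitals mark matches to the searched motifs. Map3k5 lies at chr10:19934276-19934575 on the plus strand, Hivep2 at chr10:13966129-13966428 on the plus strand and Pid1 at chr1:84284596-84284895 on the minus strand. The start taken for Pid1 is an internal one, 79.5 kb inside the gene as GENCODE M21 places it, and which start these cells use was not determined.
Map3k5: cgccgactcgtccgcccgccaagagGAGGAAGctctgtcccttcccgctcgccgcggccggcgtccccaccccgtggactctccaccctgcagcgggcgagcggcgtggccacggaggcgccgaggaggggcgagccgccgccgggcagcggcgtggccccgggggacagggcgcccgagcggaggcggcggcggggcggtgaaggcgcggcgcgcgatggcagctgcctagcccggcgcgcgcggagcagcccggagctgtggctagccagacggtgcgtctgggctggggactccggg
Hivep2: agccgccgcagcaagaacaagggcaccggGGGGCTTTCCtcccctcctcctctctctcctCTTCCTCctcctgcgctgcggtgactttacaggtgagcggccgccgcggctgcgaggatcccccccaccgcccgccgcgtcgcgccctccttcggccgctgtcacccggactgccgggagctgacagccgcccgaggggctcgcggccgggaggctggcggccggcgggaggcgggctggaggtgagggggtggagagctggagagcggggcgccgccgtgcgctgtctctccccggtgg
Pid1: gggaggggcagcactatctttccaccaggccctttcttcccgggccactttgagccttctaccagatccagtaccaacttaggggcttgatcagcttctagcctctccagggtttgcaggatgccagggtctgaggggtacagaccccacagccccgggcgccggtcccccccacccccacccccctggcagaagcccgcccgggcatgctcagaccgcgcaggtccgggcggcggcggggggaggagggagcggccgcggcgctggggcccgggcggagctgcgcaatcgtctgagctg

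All 3 windows were rich in G and C, at 79.7% for Map3k5, 75.3% for Hivep2 and 69.7% for Pid1, where the median of 32851 promoters was 52.7%. They held 47, 35 and 20 CpG dinucleotides in that order, where the median was 7. The motifs searched, on both strands, were STAT6 (TTC and GAA with 4 bases between, in 6.95% of all promoters), STAT (TTC and GAA with 3 bases between, 8.3%), the interferon response element (GAAA and GAAA with 2 bases between, 3.44%), NF-kB (GGG and TTTCC with 2 bases between, 1.63%), C/EBP (TTNNGCAA, 10.8%), AP-1 (TGANTCA, 7.81%) and PU.1 (GAGGAAG, 13.6%). No match overlapped another. The Hivep2 window held an NF-kB match, GGGGCTTTCC, that begins at position -221 relative to the start, and a PU.1 match on the other strand, CTTCCTC, at -190. The Map3k5 window held a PU.1 match, GAGGAAG, at -225, and the Pid1 window held none of the motifs. These are matches of letters in a short window, and nothing in these data measured binding there.

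Over the 15 libraries, which fall into 4 groups, Map3k5 and Arhgap24 had the most similar profiles of the 10 pairs of members (Pearson r = 0.955 on log2 values). The lowest correlation was that of Arhgap24 with Pid1 (r = 0.422), followed by Map3k5 with Pid1 (r = 0.503). The IL4 and untreated libraries, 9 of the 15, also chose the members, so part of each r is fixed by that choice, and shared groups and scaling enter as well. The values are a description. Among 9316 genes ranked, those most like Map3k5 were Nav2 (r = 0.958), Arhgap24 and Card6 (r = 0.949), a gene of the caspase recruitment domain family. Card6 had group means of 36.4 with IL4, 86.7 with LPS+IFNg, 160.8 with TGFb and 68.1 in untreated cells. Prss50 (r = 0.957) came first for Arhgap24, followed by Map3k5 and Card6 (r = 0.953). For Hivep2, Sema4d, a semaphorin gene (r = 0.924), and Mllt11 (r = 0.918) were close, and Sema4d had means of 880.2 with IL4, 3331 with LPS+IFNg, 2377 with TGFb and 1454 in untreated cells. The genes most like Hp were Spink5 (r = 0.918), Ptpn12 (r = 0.891) and Arid3a (r = 0.886), and those most like Pid1 were Cped1 (r = 0.948), Sqrdl (r = 0.932) and the mitotic spindle gene Aspm (r = 0.929). Aspm had means of 277.5 with IL4, 632.9 with LPS+IFNg, 289.7 with TGFb and 465.6 in untreated cells.

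**Figure D5:**
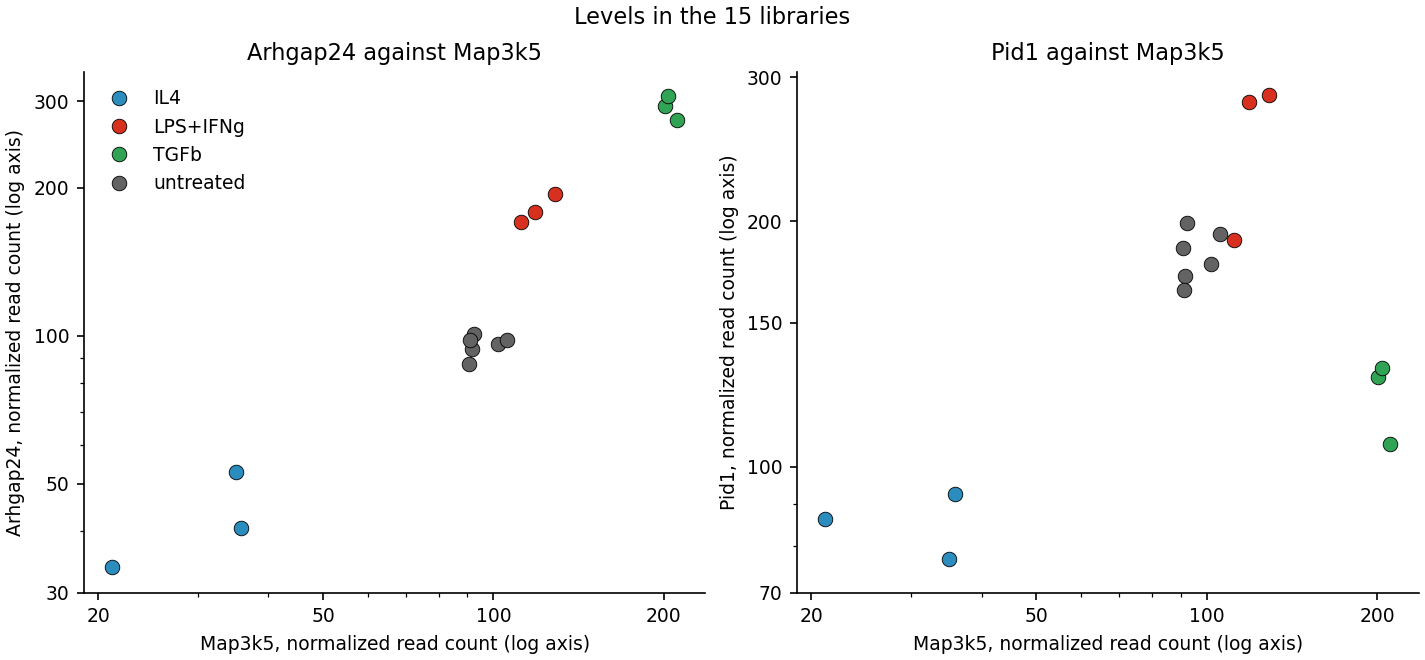
Normalized read count of Map3k5 against that of Arhgap24 and of Pid1 in each of the 15 libraries, both axes logarithmic, with points marked by group. Map3k5 and Arhgap24 keep one order of groups (r = 0.955), while in the Pid1 panel (r = 0.503) the TGFb libraries leave that order.

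In the same IL4 libraries, genes known to respond to IL4 were raised. Of 13 tested genes of IL4 receptor signalling and response 8 rose and 0 fell (median log2 fold change 0.29), where 9.89% of all genes rose and 7.33% fell. Scaling the libraries to the same total gave 7 that rose and 1 that fell. The arginase gene Arg1 rose to 72.2 ± 17, against 1.51 ± 0.79 in untreated cells, and the feedback inhibitor gene Cish to 88.6 ± 1.22, against 8.3 ± 4.95. The mannose receptor gene Mrc1 rose to 13044 ± 644, against 4830 ± 257, and the lectin gene Clec10a to 397.5 ± 32.9, against 149.7 ± 5.45. Socs1 (log2 fold change 2.25), Irf4 (0.66), Tyk2 (0.29) and Il2rg (0.22) rose as well, and the call of Tyk2 was lost with libraries scaled to the same total (adjusted p = 0.0728). The receptor gene Il4ra (84.9 ± 5.29, against 97.6 ± 13.5) and Stat6 (1352 ± 26.6, against 1392 ± 40.8) were not called with IL4. Il4ra rose with LPS+IFNg to 282.4 ± 115 and with TGFb to 420.4 ± 22.9. Of the 13, 8 rose and 3 fell with LPS+IFNg (median 0.85), where 29.5% of all genes rose and 29.4% fell. With TGFb 5 rose and 2 fell (median -0.03, or 0.07 with 1 gene at its lower bound), where 24.1% rose and 23.4% fell. Between LPS+IFNg and TGFb 6 were higher and 4 lower, where 31.9% of all genes were higher and 30.8% lower. The median of that comparison was 0.03, or 0.24 without a gene that had at most 3 reads in both groups.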

How the data were processed

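RNA from 15 libraries was sequenced after TRIZOL extraction and TruSeq library preparation, per the labels' protocols. Per the submitters' processing notes, TopHat2 2.0.3, Partek 6.6, R 3.0.2 and DESeq2 were used with mm10. What each did, the annotation, how reads were counted and whether by strand are not given in the sources used here. Values in the deposited table are a normalized signal, which the authors made from read counts divided by 1 factor per library, with a floor of 1, as read from the values. Whole reads were recovered, by the smallest step in each column, for 100% of values above the floor and under 1000 reads, within 0.05 reads. A total of 0 value columns was left out.

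Groups came from the labelled stimulus. Genes that reached 10 in 3 or more libraries were tested with limma 3.58.1 (R 4.3.3) on log2(value + 1), using its empirical Bayes moderation with a trend, in 1 fit over 15 libraries, with Benjamini-Hochberg adjustment at 0.05 within a comparison. edgeR 4.0.16 and DESeq2 1.42.0 on recovered reads were alternatives, as were other pseudocounts, filters, scalings and left-out libraries. The fit was tested on simulated data. The members, gene lists and tests were chosen with earlier results of these data known, so the lists are no independent evidence. The text names the members, for each the 3 genes of highest correlation with a mean of at least 50 in a group, the genes ranked beside them, fixed partners, and per list and comparison the 2 called genes of largest change; all called genes of the IL4 list are named as well, and cell type markers came from fixed lists. C3, Nos2, Il4ra and Stat6 were named in addition, after their values were seen. Some genes and 1 gene list taken by this rule are not reported here. Near-identical genes and overlapping or antisense transcripts could share reads. Positions came from GENCODE M21, promoters from RefSeq. Intervals are 95% confidence intervals of a difference between group means, computed from the spread between libraries, and do not span the libraries themselves.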

Additional observations from a re-analysis of the deposited data

How the results depend on the processing

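Arhgap24 and Pid1 kept their direction and their call in all 27 alternatives of LPS+IFNg against TGFb, LPS+IFNg against untreated and TGFb against untreated. Map3k5 did so for LPS+IFNg against TGFb and TGFb against untreated, and Hivep2 for LPS+IFNg against untreated. For the calls that moved, the cause was not tested.

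Map3k5 in LPS+IFNg against untreated was called with a pseudocount of 10 (0.30, adjusted p = 0.033), a minimum value of 50 (0.32, 0.0493), no trend (0.32, 0.0463), a fit of 2 groups (0.32, 0.0219), edgeR (0.33, 0.0123) and DESeq2 (0.34, 0.0176), and ranged over 0.27 to 0.37 with 1 library left out, called in 4 of 15. Hivep2 in LPS+IFNg against TGFb was called with edgeR (0.42, 0.0399), DESeq2 (0.44, 0.0499) and without the 3 libraries of fewest reads (0.49, 0.0492), and ranged over 0.27 to 0.52 with 1 library left out. Hivep2 in TGFb against untreated was not called with equal totals (0.35, 0.0822), quantiles (0.33, 0.144), 2 groups (0.43, 0.0561) or without the 3 libraries of fewest reads (0.50, 0.0529), and ranged over 0.33 to 0.58 with 1 left out, called in 7 of 15. Hp in TGFb against untreated was not called with equal totals (0.70, 0.0827), no trend (0.78, 0.0878), robust estimation (0.78, 0.113), DESeq2 (0.78, 0.0509) or without the 3 libraries of fewest reads (0.82, 0.152), and ranged over 0.75 to 0.81 with 1 left out, called in 5 of 15. Hp in LPS+IFNg against untreated ranged over -0.18 to 0.98 and reversed to -0.03 without LPS+IFNg replicate 1 and to -0.18 without replicate 2. Hp in LPS+IFNg against TGFb ranged over -0.96 to 0.20, at -0.96 (adjusted p = 0.0146) without LPS+IFNg replicate 2 and reversed to 0.20 without replicate 3.

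With 1 library left out, genes called numbered 1130 to 2749 for IL4 against untreated, lowest without IL4 replicate 2, 6358 to 7108 for LPS+IFNg against TGFb, 6039 to 6602 for LPS+IFNg against untreated and 4432 to 5948 for TGFb against untreated. The gene lists were chosen to be rescaled after seeing the data. Genes of the ASK1 list called with IL4 numbered 7 with equal totals (4 as deposited), and those called with TGFb 16 without LPS+IFNg replicate 3 (10 with it). Genes of the HIVEP list called with IL4 numbered 2 with equal totals and 3 without that replicate (1 with all). No paired analysis was possible because the labels give no replicate numbers that tie libraries of different groups. Depth limits Map3k5 and Hivep2 most, with 15 to 65 and 18 to 53 reads in an IL4 library.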
